A study of Gallus gallus with 26 samples.

Results

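In the complexus, the neck muscle that a chick uses to pip its shell, 8 genes were counted in some libraries and were nearly missing from others of the same age. The 26 libraries of broiler chickens (Gallus gallus) were split on these genes. Libraries were chosen by measured values: the raw counts of the 8 genes were summed, divided by the total count of the library and scaled to counts per 1e6 counts (CPM). Of the 26 libraries, 19 stood at or above 30 CPM and are called libraries with the block. The other 7 stood below 30 CPM and are called libraries without it. The labels give the day and no other difference between birds, so these classes come from the counts and are not groups of the study.

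The libraries with the block were spread over all 5 days: 5 came from embryonic day 15 (E15), 4 from E17, 2 from E19, 4 from E20 and 4 from E21. Without it there were 1 library from E15, 2 from E17, 3 from E19 and 1 from E20, and none from E21. All were made from total RNA of frozen muscle, and the labels give a single batch. The series description names MARS-Seq, a method that counts transcripts by their 3' ends, and speaks of hatch and chick placement where the labels have E20 and E21. The labels do not state whether each library came from its own bird, so p-values measure the spread between these libraries. The 19 libraries with the block held 661931 to 2208872 counts and the 7 without it 580768 to 1887129 counts. Library depth therefore overlapped widely between the classes, as did the TMM scaling factors, at 0.776 to 1.33 with the block and 0.752 to 1.16 without it.

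Bird sexes differ in the Z and W chromosomes: females carry a Z and a W, whereas males carry a pair of Z chromosomes and no W. Genes on the W are therefore transcribed in females only, and many genes on the Z are expressed at a lower level in females, since compensation for Z dosage is incomplete in birds. This is given as background only. The labels give no sex, the files pair no identifier with a name or chromosome, and 0 of the 8758 identifiers listed matched a table of 25635 RefSeq genes of chicken. Whether the classes follow the sex of the birds was not tested, and no role can be given to any gene below.

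The classes were far apart on the sum that defined them. The sum had a lowest value of 67.2 CPM, a median of 98.9 CPM and a highest value of 119.7 CPM in the 19 libraries with the block. In the 7 without it, E15 replicate 4 had 2.08 CPM, E17 replicates 3 and 5 had 0.530 and 0.727 CPM, E19 replicates 2 and 5 had 0 CPM, E19 replicate 6 had 4.92 CPM and E20 replicate 2 had 3.16 CPM. The libraries nearest to the threshold were E17 replicate 6 at 67.2 CPM on the upper side and E19 replicate 6 at 4.92 CPM on the lower side, and no library lay between them. Moving the threshold to 10 CPM left the same 19 and 7 libraries, and 19 libraries were also at or above 30 CPM after TMM scaling.

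**Figure D1:**
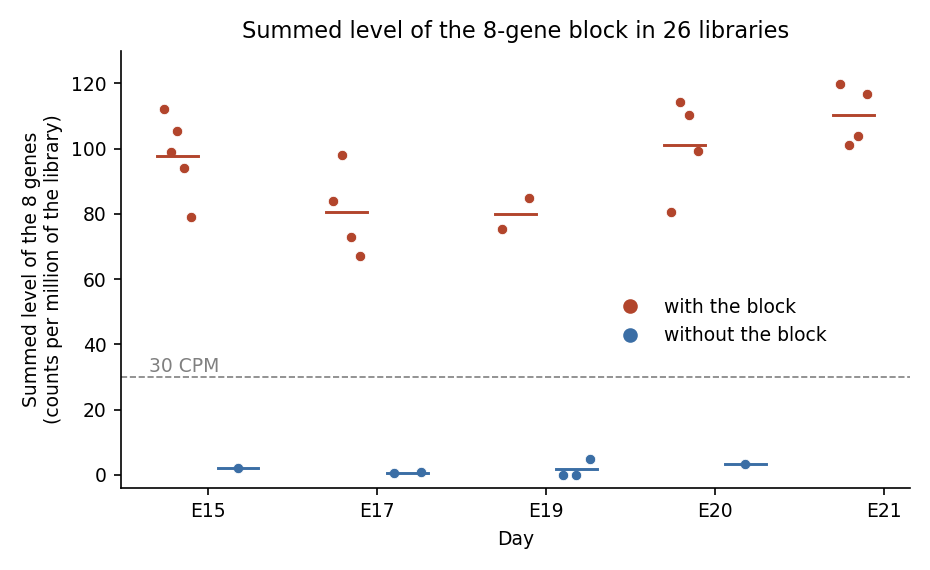
Summed level of the 8 genes in each library (vertical axis, CPM, counts per 1e6 of the library total) by day (horizontal axis), with 1 point per library, a bar at the mean and the 30 CPM threshold dashed. The 19 libraries with the block lie between 67.2 and 119.7 CPM, and the 7 without it lie at or below 4.92 CPM.

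All 8 genes contributed to the split. In the libraries with the block every one of the 8 had a count in all 19 libraries, for a total of 2196 counts. In the 7 libraries without it they had 11 counts in all, never more than 1 count of a gene in a library. Pooled over libraries, the block stood at 97.1 CPM with it and at 1.403 CPM without it (exact 95% Poisson interval 0.7003 to 2.51 CPM for the libraries without it). The ratio of these rates was 69.2, and its exact 95% interval, which reflects counting error alone, ran from 38.6 to 138.9. These values chose the libraries and are a description, so no test is given.

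The genes with the most counts were ENSGALG00000040086.2 and ENSGALG00000045261.1. ENSGALG00000040086.2 had a lowest value of 4.53 CPM, a median of 18.04 CPM and a highest value of 29.9 CPM in libraries with the block, against 3 counts over 3 of the 7 libraries without it. ENSGALG00000045261.1 had 6.72, 15.5 and 35.4 CPM as the lowest, median and highest values in libraries with the block, against 2 counts in the libraries without it. The highest measured value without the block was 1.23 CPM for the first and 1.58 CPM for the second, below all measured values with it. For the first, a count of 0 in E19 replicate 5 or E20 replicate 2 allows up to 5.17 or 4.75 CPM, which is above its lowest value with the block.

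ENSGALG00000037690.2 had a lowest value of 7.77 CPM, a median of 14.6 CPM and a highest value of 22.5 CPM in libraries with the block, and no count in any of the 7 without it. Taking 3 counts over the 7 libraries as the floor, its pooled level was at least 38.3-fold higher with the block. ENSGALG00000045234.1 was the other gene with no count in the 7 libraries, and it had 2.88, 6.05 and 12.9 CPM as the lowest, median and highest values in libraries with the block. Its pooled level was at least 17.7-fold higher with the block by the same floor. A count of 0 in 1 library allows up to 1.59 CPM in the deepest of the 7 libraries and up to 5.17 CPM in the shallowest.

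ENSGALG00000040780.1 had 7.43, 12.1 and 30.2 CPM as the lowest, median and highest values in libraries with the block, against 2 counts without it, and ENSGALG00000035489.2 had 4.61, 12.1 and 19.5 CPM, against 1 count. For ENSGALG00000042014.2 the values were 4.25, 8.64 and 16.0 CPM in libraries with the block, against 2 counts without it. The gene with the fewest counts was ENSGALG00000039023.1, with 1.48, 4.25 and 9.06 CPM in libraries with the block and 1 count without it. Over the 5 genes with 1 or 2 counts in the 7 libraries, the ratio of pooled rates lay between 32.9 (ENSGALG00000039023.1, exact 95% interval 5.77 to 1315) and 92.6 (ENSGALG00000035489.2, exact 95% interval 16.5 to 3671). The intervals of all 5 overlap widely, and the genes cannot be ranked by how nearly they were missing.

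**Figure D2:**
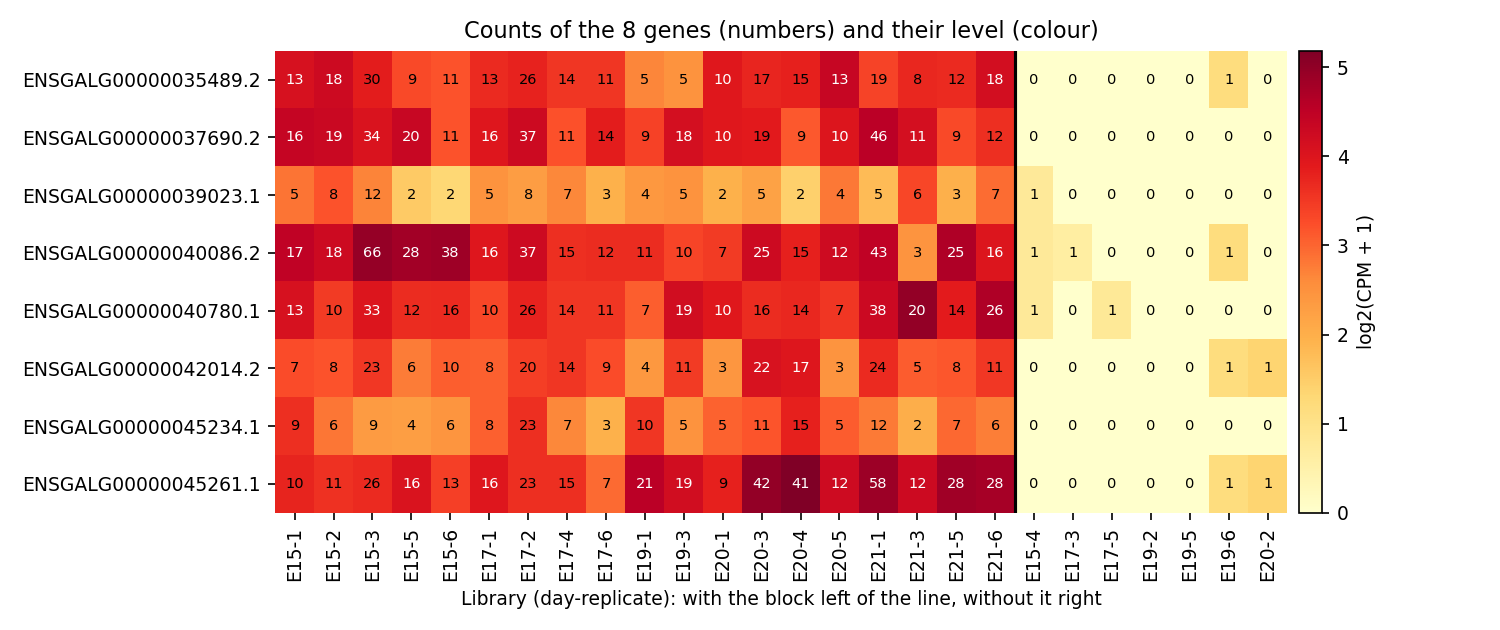
Raw counts (numbers) and levels (colour, log2 of CPM + 1) of the 8 genes (rows) in the 26 libraries (columns), with the 19 libraries with the block left of the line and the 7 without it right. Each gene has at least 2 counts in every library on the left and at most 1 count in any library on the right.

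The 11 counts in the libraries without the block were spread over 6 genes and 5 libraries. E19 replicate 6 had 4 of them, in 4 genes, and E15 replicate 4 had 3, in 3 genes. E20 replicate 2 had 2, E17 replicates 3 and 5 had 1 each, and E19 replicates 2 and 5 had none. At the depth of the shallowest of these libraries, E19 replicate 5, a count of 0 allows up to 5.17 CPM. This is below the lowest values with the block of ENSGALG00000037690.2 (7.77 CPM), ENSGALG00000040780.1 (7.43 CPM) and ENSGALG00000045261.1 (6.72 CPM). It is above those of the other members, which a count of 0 there does not separate from the other class. The split rests on the 8 genes together.

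The summed level in the libraries with the block was then followed over the days. On library totals the E15 libraries averaged 97.9 ± 12.6 CPM (SD, n = 5), the E17 libraries 80.6 ± 13.6 (SD, n = 4) and the E19 libraries 80.1 ± 6.61 (SD, n = 2). The E20 libraries averaged 101.1 ± 15.1 CPM and the E21 libraries 110.4 ± 9.26 (SD, n = 4 each). TMM factors correct for the shifting weight of a few very abundant genes. With them the E15 mean was 89.4 ± 11.8 normalised CPM and the E17 mean 85.4 ± 9.81, the E19 mean was 102.1 ± 6.96, and the means of E20 and E21 were 100.9 ± 16.4 and 85.8 ± 5.76. The order of the days changed with the scale, and the sum was not tested between days.

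Of the 8 genes, 7 passed the filter on low counts in a fit of the 19 libraries with the block alone, and ENSGALG00000039023.1 did not. Between any of the 5 days, 1 of these 7 passed the quasi-likelihood test of edgeR, with an adjusted p (Benjamini-Hochberg over all genes tested) below 0.05, against 65.1% of the 6223 genes tested. The others had an adjusted p between 0.0832 and 0.704 in the same edgeR test. The count of members that passed was 2 without E15 replicate 1 and without E21 replicate 5. With library totals as the scale 4 of the 7 differed, against 78.1% of the genes tested on that scale. The 7 genes had medians of 6.05 to 18.04 CPM in these libraries, and low counts limit the test. The shares of all genes tested are not matched for level. The gene that differed was ENSGALG00000045261.1, whose adjusted p was 0.000927 in edgeR and lay between 0.000174 and 0.00324 when each library was left out in turn.

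ENSGALG00000045261.1 was higher on the later days. In libraries with the block it had 11.3, 10.1, 10.9, 14.6 and 8.57 normalised CPM at E15 and 15.8, 11.1, 12.3 and 7.48 at E17. It had 28.7 and 22.1 normalised CPM at E19, 12.7, 30.4, 36.3 and 17.7 at E20, and 21.4, 13.99, 22.4 and 20.4 at E21. The E19 libraries lay above all of those of E15 and E17, whereas the E20 libraries spread from the E15 range to the highest value. In the libraries without the block it had no count at E15 and E17, and 1 count each in E19 replicate 6 and E20 replicate 2.

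In the authors' deposited table, which compares days over both classes together, none of the 8 genes reached an adjusted p of 0.05 in any of 5 comparisons. Of these 40 values the lowest in the authors' deposited table was 0.161, for ENSGALG00000045261.1 after against before hatching, with a log2 fold change of 1.1. The classes were shared unevenly between days: E19 had 2 libraries with the block and 3 without it, and all 4 at E21 had it. A comparison over both classes therefore mixes the level of the gene with the share of libraries that have the block.

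The next question was which other genes differed between libraries with and without the block. Among 5894 other genes that passed the filter on low counts, 79 were lower and 2 were higher in libraries with the block. These are 1.34% and 0.0339% of the genes tested. The test was edgeR's quasi-likelihood test with day in the model and an adjusted p under 0.05 (Benjamini-Hochberg over all 5901 genes, 7 of the 8 included). With no filter on low counts 68 genes were lower and 11 higher, so the number of higher genes depends on that filter. Without adjustment, and with the filter, 286 genes were lower and 191 higher at p under 0.05. The E21 libraries entered the fit but hold no information on the class, because all 4 had the block.

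The 79 lower genes differed by similar amounts. Calling by adjusted p leaves out small differences, so the narrow spread of these genes follows in part from that choice. Their median log2 difference was -0.80, a ratio of 0.574, with quartiles of -0.89 and -0.69 and extremes of -1.34 and -0.32. Of the 79, 73 lay between -1.1 and -0.5, and 8 were at least 2-fold lower. Over all other genes tested the median was 0.00457 and the quartiles were -0.15 and 0.13. The 2 higher genes were both less than 2-fold higher.

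The lower genes were not restricted to weakly expressed ones. Their mean level ran from 6.39 to 16372 normalised CPM with a median of 37.0, against a median of 26.2 over all other genes tested. Among the 2689 genes with a mean of at least 32 CPM, 59 had a log2 difference below -0.5 and 20 one above 0.5. Of the 59, 47 were among the genes called, as was 1 of the 20, so this excess is not separate from the calls. In the narrower band from -1.1 to -0.7 there were 35 genes, and from 0.7 to 1.1 there were 6. The lower of these bands holds the median of the called lower genes, so it adds no separate support.

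**Figure D3:**
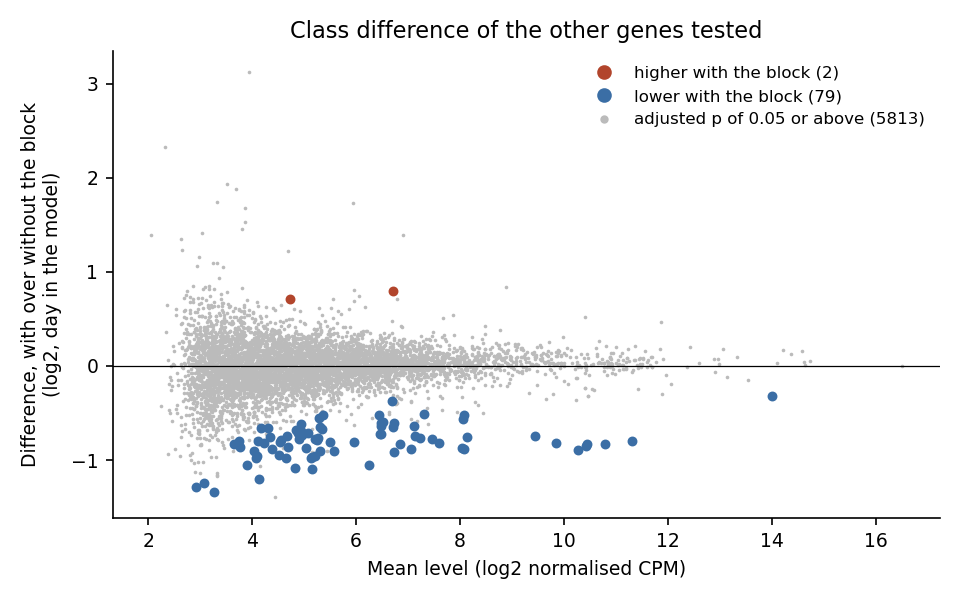
Difference between libraries with and without the block (vertical axis, log2, with over without, day in the model) against mean level (horizontal axis, log2 normalised CPM) for the 5894 other genes tested. The 79 genes called lower form a band around -0.80 that extends to high levels, and 2 genes are called higher.

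The band was seen on each day that held both classes. Of the 79 lower genes, all 79 were lower with the block at E15 and all 79 at E17, against 78 at E19 and 75 at E20, and 75 were lower on all 4 days. Their median difference was -0.77 at E15 and -0.84 at E17, followed by -0.81 at E19 and by -0.75 at E20. Over all other genes tested the medians were between 0.00119 and 0.0355, and 7.43% were lower on all 4 days. The genes were called on these same libraries, so the direction within days follows in part from that choice. E15 and E20 each had 1 library without the block, so the values of these days rest on E15 replicate 4 and E20 replicate 2.

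**Figure D4:**
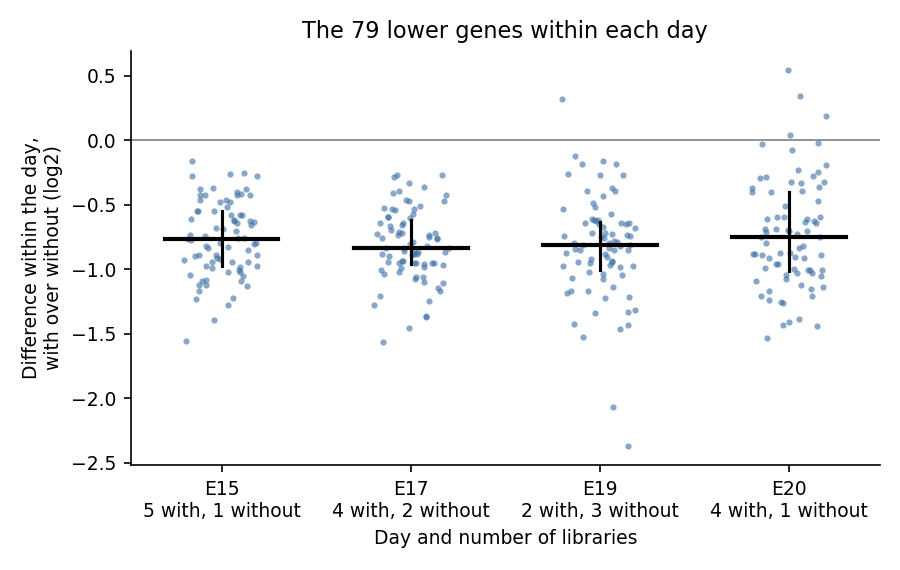
Difference within each day (vertical axis, log2, with over without the block) of the 79 lower genes, 1 point per gene, with the median as a horizontal bar and the quartiles as a vertical bar. The medians lie between -0.84 and -0.75 on the 4 days that hold both classes.

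A test of whether the class difference itself changed from before hatching (E15, E17, E19) to E20 and E21 called 0 of the 5894 genes (edgeR, lowest adjusted p 0.190), with 372 at an unadjusted p under 0.05. Of the 81 genes that differed between the classes, 2 were among those 372. The later period had 1 library without the block, at E20. All 4 E21 libraries had the block, so E21 adds nothing to the later class difference, which rests on E20 alone. The test does not show that the difference was the same in both periods.

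The lower gene with the largest fold was ENSGALG00000027472.2. In libraries with the block it had 5.63, 2.74, 5.43, 2.73 and 5.27 normalised CPM at E15, against 11.95 in the E15 library without it. At E17 it had 3.95, 7.21, 8.22 and 5.34 with the block, against 17.4 and 15.5 without it. The classes did not overlap on any day, nor over all days together. Over all days the nearest libraries were close, at 11.5 in E20 replicate 4 with the block and 11.95 in E15 replicate 4 without it.

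At E19 ENSGALG00000027472.2 had 8.21 and 8.14 normalised CPM with the block, against 14.9, 18.5 and 22.9 without it. At E20 it had 4.25, 5.07, 11.5 and 10.3 with the block, against 21.2 without it, and at E21, where all libraries had the block, it had 1.17 to 2.91. The gene had 13 counts both in E20 replicate 4 with the block and in E20 replicate 2 without it, so their separation rests on depth. The log2 difference of ENSGALG00000027472.2 was -1.34 (SE 0.21, adjusted p = 0.000125 in edgeR with Benjamini-Hochberg). Its adjusted p lay between 8.3e-05 and 0.00158 when each library was left out in turn.

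The second lower gene was ENSGALG00000000244.6. It had 2.25 to 7.91 normalised CPM in the 5 E15 libraries with the block, against 10.75 in the 1 without it, and 1.97, 3.84, 2.47 and 2.14 at E17 with the block, against 6.39 and 10.85 without it. At E19 it had 6.84 and 8.14 with the block, against 13.7, 20.6 and 19.6 without it, and at E20 4.25, 1.45, 2.66 and 0 with the block, against 4.89 without it. The classes did not overlap within any day, but they did over all days together. At E20 the gene had 3 counts both in E20 replicate 1 with the block and in E20 replicate 2 without it. The separation of these 2 libraries therefore rests on their depth and not on the counts. The log2 difference of the gene was -1.29 (SE 0.29, adjusted p = 0.0115 in edgeR with Benjamini-Hochberg). That call was lost without E15 replicate 4 (log2 difference -1.37, adjusted p 0.0521), without E17 replicate 5 (-1.16, adjusted p 0.067) and with the replicate number of the labels as a block (-1.16, adjusted p 0.136).

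Of the 2 higher genes, ENSGALG00000014447.4 had the larger fold. It had 91.2, 66.7, 71.0, 76.5 and 59.99 normalised CPM at E15 with the block, against 26.9 without it, and 93.8, 72.1, 88.7 and 98.3 at E17 with the block, against 54.6 and 39.5 without it. At E19 it had 84.8 and 127.9 with the block, against 83.4, 82.2 and 67.1 without it. At E20 it had 101.9, 113.8, 145.3 and 154.6 with the block, against 86.4 without it.

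On normalised CPM, ENSGALG00000014447.4 thus did not overlap between the classes on any day, but did over all days together. At E19 the nearest libraries, at 84.8 with the block and 83.4 without it, were close. On library totals the classes overlapped at E19. There E19 replicate 1 with the block had 65.83 CPM, against 65.95 and 68.87 CPM in E19 replicates 2 and 5 without it. The normalised means of ENSGALG00000014447.4 were higher on each later day in both classes. E21 had the highest values, with 188.3 to 207.5 normalised CPM in 4 libraries with the block. The log2 difference between the classes was 0.80 (SE 0.13, adjusted p = 0.000269 in edgeR with Benjamini-Hochberg). Without day in the model it was 0.93 and did not pass the test.

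ENSGALG00000037289.1 was the other higher gene. It had 18.3 to 27.3 normalised CPM in the 5 E15 libraries with the block, against 11.95 without it, and 28.6, 33.6, 27.1 and 32.1 at E17 with the block, against 18.6 in both without it. At E19 it had 26 and 20.9 with the block, against 16.0, 14.4 and 16.4 without it, and at E20 25.7 to 35.4 with the block, against 21.2 without it. The classes did not overlap on any of these days. At E21 it had 36.9, 15.2, 28.8 and 27.6 with the block, and the second of these lay below 5 of the 7 libraries without it, so the classes overlapped over all days together. Its log2 difference was 0.71 (SE 0.16, adjusted p = 0.009998 in edgeR with Benjamini-Hochberg), and without E15 replicate 4 it was 0.63 with an adjusted p of 0.1145. The called genes named above were chosen for the largest fold, and E15 and E20 each had 1 library without the block. Separation of the classes within a day is therefore a description and adds no support to the calls.

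**Figure D5:**
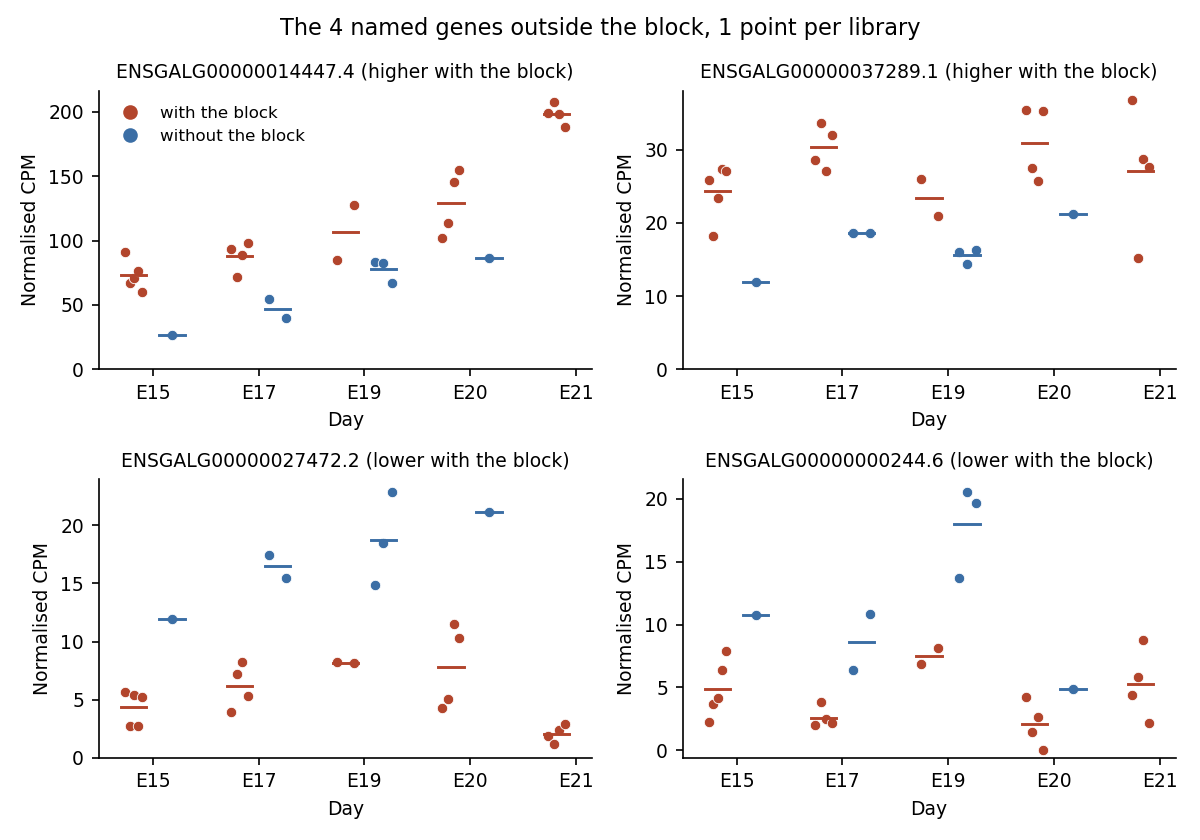
Normalised CPM (vertical axes) by day (horizontal axes) of the 4 named genes outside the block, with 1 point per library and bars at the means, libraries with the block left of those without it. ENSGALG00000014447.4 and ENSGALG00000037289.1 are higher and ENSGALG00000027472.2 and ENSGALG00000000244.6 are lower with the block on each of the 4 days that hold both classes.

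Of the 8 members, only ENSGALG00000037690.2 and ENSGALG00000045234.1 had no count in the 7 libraries without the block. Outside the block, no gene that was tested had counts in at least 10 of the 19 libraries with it and none in the 7. The remaining members had 1 to 3 counts in the 7 libraries, and other genes were not searched for that looser pattern. The 2 genes with the highest Spearman correlation with the summed level over the 26 libraries, which share library totals as their scale, were ENSGALG00000010652.6 (rho 0.82) and ENSGALG00000007470.5 (rho 0.81). Each of the 8 members, set against the sum of the other 7, had a rho between 0.6165 and 0.77. These values do not compare with those of the 2 genes, which were the highest of 8750 and were set against all 8. ENSGALG00000010652.6 averaged 92.7 ± 21.4 normalised CPM with the block (SD, n = 19) and 67.1 ± 13.4 without it (SD, n = 7), and ENSGALG00000007470.5 averaged 18.7 ± 4.44 with the block (SD, n = 19) and 14.2 ± 2.55 without it (SD, n = 7). In both genes the classes overlapped. Both were picked by their correlation with the sum that defines the classes, so these levels are a description with no test. The correlation takes no account of day, and all 4 E21 libraries had the block. Within days the log2 difference with over without the block of ENSGALG00000010652.6 was 0.51 at E15, 0.36 at E17, 0.43 at E19 and -0.092 at E20. That of ENSGALG00000007470.5 was 0.37 at E15, 0.61 at E17, -0.21 at E19 and 0.26 at E20.

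Below the filter on low counts lay further genes with no count in the libraries without the block. Among the 8750 other listed genes, 10 had counts in at least 10 of the 19 libraries with the block and none in any of the 7 without it, and 9 of the 10 were counted on all 5 days. They had 30 to 103 counts in all, in 10 to 18 libraries, and at most 21 in 1 library. The part counted at E15 to E20 ran from 10 of 30 counts (ENSGALG00000045713.1) to 39 of 45 (ENSGALG00000031327.1). The rest came from E21, where no library lacked the block. None of the 10 entered the test above. They were chosen for this pattern, so it is a description with no test. The 11 genes called higher in the fit with no filter include genes chosen in this way, and nothing is read from that overlap.

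The number of genes called different between days was similar with and without the class in the model. Only the calls were compared, not the sizes of the differences. With the class as a covariate, 4141 genes (70.2% of 5901) differed between any of the 5 days (edgeR, adjusted p under 0.05). Without it 4195 genes differed, and 4066 were called both ways. Of the 79 lower genes, 56 (70.9%) also differed between days, a share near that of all genes tested.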

How the data were processed

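The authors deposited whole-number counts per gene for 26 libraries, per the file headers raw counts, and log2 fold changes with adjusted p-values of 5 comparisons of days, which the authors made. STAR 2.7.10a, HTSeq 2.0.2 and DESeq2 are named by the submitters' processing notes. None of these sources gives the genome build, the strand or how molecular identifiers were treated. How reads of near-identical or overlapping genes were assigned is therefore not known. The table lists genes with a highest count of at least 6. Its 26 columns of normalised values were not used.

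Levels are counts per 1e6 of the library total, or normalised CPM, scaled with TMM factors. Tests used edgeR 4.0.16 in R 4.3.3 (quasi-likelihood) on the counts, after filterByExpr by day (minimum count 10, minimum total 15), which kept 5901 genes with 99.2% of the counts. The class was a term beside day. The SE is the absolute log2 difference divided by the root of the F statistic. The 8 genes stayed in the fit and in the Benjamini-Hochberg adjustment and are left out of counts of other genes. The fit was also run on simulated counts with known class differences, which checks the procedure and adds no support to the calls. DESeq2 1.42.0, limma 3.58.1 (voom) and other settings were alternatives. Among 56 pairs of libraries of a day, the chi-square of counts per degree of freedom was at least 2.76, so all differed by more than counting error. Each library was counted as 1 sample, though this does not show that each came from its own bird. Intervals and floors (3 counts) cover counting error only.

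The 8 genes, the threshold and the tests were chosen with earlier results of these data known. Named genes outside the block were the 2 with the largest fold in each direction among genes called with a mean of at least 10 normalised CPM in the higher class, and the 2 most correlated with the sum. Planned lists of marker genes need gene names and were not used here.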

Additional observations from a re-analysis of the deposited data

Results flagged for a closer look

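Among 60 sets of 4 or 5 libraries of 1 day with the block (the 8 genes, their sum and the 6 named genes outside the block), 3 held a library far from the others. Chance gives about 1 in 20, so this is the number that chance alone would give. ENSGALG00000037690.2 had 7.97 normalised CPM in E20 replicate 4, against 13.8 to 14.7 in the other 3 E20 libraries with the block. ENSGALG00000045234.1 had 13.3 in the same library, against 7.08 to 7.97 in the others, and 10.1 in E15 replicate 1, against 3.64 to 5.49 in the other 4 E15 libraries with the block.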

How the results depend on the processing

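The count of 81 other genes that differed between libraries with and without the block stayed within 1.5 times under 7 of 9 alternatives. The split at 10 CPM gave the same 2 classes and hence the same fit, and is not counted among them. The count was 90 with DESeq2 (85 lower, 5 higher), of which 81 were shared, 87 with limma-voom (84 lower, 3 higher), 81 with library totals (78 lower, 3 higher) and 75 on the 4 days with both classes. It was 79 with no filter on low counts (68 lower, 11 higher, 70 of the 81 shared) and 81 with the 8 genes removed first. Without a day term it was 45 (44 lower, 1 higher, 41 of the 81 shared). With the split at 100 CPM, which sets 8 libraries against 18 and so divides the libraries with the block, it was 0 in edgeR, with 178 at an unadjusted p under 0.05. Leaving out each library in turn gave 55 to 83 genes, 54 to 80 of them lower and 1 to 5 higher, the lowest without E15 replicate 4. With the replicate number of the labels as a replicate block it was 67 (63 lower, 4 higher), and ENSGALG00000000244.6 no longer passed. Among same-numbered libraries of different days, the correlation of what remained after day and class exceeded 0.1 in 2 of 45 pairs. Whether the numbers pair libraries cannot be told from this, as a factor acting on few genes would hardly move these correlations. The log2 differences of the 4 named genes that passed the test changed sign under none of the alternatives run, but with the split at 100 CPM they were 0.34, 0.026, -0.32 and -0.91, all with an adjusted p of 0.999 in edgeR. The test of whether the class difference changed at E20 rests on 1 library of that day without the block, E20 replicate 2. This library could not be left out, so the other settings of the test say nothing about stability. Counts of genes differing between days among libraries with the block ran from 3806 to 4191 with a library left out. Levels of the 8 genes are limited by depth: at most 66 counts of a gene in a library.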
